A study of Mus musculus with 4 samples.

Results

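The ATF4 axis was taken as 9 genes of the integrated stress response among the 55335 genes of the count table. They are the basic leucine zipper (bZIP) transcription factors Atf4, Atf5, Atf3, Ddit3, Cebpb and Cebpg and the effectors Trib3, Chac1 and Nupr1. They were found by symbol in the quantification tables of the 4 libraries and by the same Ensembl identifier in the counts. All 9 passed the filter on low counts, and they fill 10 rows of the counts because Ddit3 has 2. RNA-seq was used to ask how lactate supplementation changed the transcriptome of AB2.2, a mouse embryonic stem cell (ESC) line, with 2 control libraries and 2 lactate libraries from cells kept in 50 mM lactate for 24 h. Cells of both groups grew on mouse embryonic fibroblast feeders, in medium with serum at 15%, leukemia inhibitory factor at 1000 U/ml, the GSK3 inhibitor CHIR99021 at 3 μM and the MEK inhibitor PD0325901 at 1 μM. A single cell line was used, removal of the feeders before lysis is not stated, and no control matched for salt, osmolarity or acidity is named in the sources used here. Nothing says that the 2 libraries of a group came from separate cultures, so p-values measure only the spread between these libraries, which may be technical.

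In the integrated stress response, kinases that sense amino acid shortage, misfolded protein, heme shortage or double-stranded RNA phosphorylate the translation factor eIF2. General protein synthesis then slows, while the Atf4 messenger RNA, whose upstream reading frames otherwise divert ribosomes, is translated better. ATF4 pairs with C/EBP family partners such as C/EBPγ on DNA sites called C/EBP-ATF response elements, and the genes it switches on include further bZIP factors (Atf5, Atf3 and Ddit3, which encodes CHOP), genes of amino acid uptake and synthesis, and the feedback inhibitor Trib3. RNA-seq reads the messenger RNA of these genes and not their protein.

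The libraries held between 18067562 and 19077885 gene counts, of which mitochondrial genes took 5.48% in control 1, 2.43% in control 2, 5.72% in lactate 1 and 2.82% in lactate 2. After the filter 18661 genes were compared by the quasi-likelihood test of edgeR, adjusted after Benjamini and Hochberg over all of them, and genes were called where the adjusted p was under 0.05 and the groups differed by over 2-fold. This gave 103 genes called higher and 65 called lower upon lactate supplementation, so that 61.3% of the calls were higher, or 73.0% when libraries were scaled by their totals alone. DESeq2 called 190 genes higher and 168 lower (53.1% higher), the RSEM expected counts gave 27 and 17, and leaving out a library gave 45 to 502 and 39 to 367, so these counts moved by far more than 1.5 times with the processing. The summed level of 14 pluripotency markers was 6567 and 6991 CPM (counts scaled to the size of the library) without lactate and 6992 and 7794 CPM with it, and all 14 passed the filter, as the labelled cell type requires. Of these markers 0 were called, and at an unadjusted p under 0.05 5 were higher, among them Sox2 with a log2 fold change of 0.56, and 2 were lower. Of all genes tested, 11.7% were higher and 11.4% lower at that p in edgeR. Markers of feeder fibroblasts summed to 3174 and 3462 CPM in control cells, against 4139 and 3765 CPM in lactate cells, with 0 of 14 called and 2 of 14 at an unadjusted p under 0.05, both lower. Most of that sum is Fn1, fibronectin, a gene singled out after its values were seen, with a log2 fold change of 0.38 (adjusted p = 0.236, edgeR). Markers of primitive endoderm summed to 17.0 and 15.2 CPM in control cells, against 28.5 and 21.1 CPM in lactate cells, with 0 of the 6 tested called and 2 at an unadjusted p under 0.05, both higher. Of the 6 tested, 6 had a log2 fold change above 0 and 0 below, with a median of 0.61, beside 0.01 over all genes. DESeq2 called 0 genes of these 3 marker lists. The part of these other cells in the results on the 9 genes was not tested, and in bulk RNA a change in the number of cells of a type and a change in RNA per cell cannot be told apart.

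The promoters shown first are those of the 6 genes of the axis that were called higher. The response element of ATF4 can be looked for in them. Each window of 300 bases spans a RefSeq start (GRCm38.p6) and lies mostly upstream of it, is written along the gene's own strand, and has in capitals any match to the C/EBP-ATF response element written as TGATGNAA on either strand. The windows of Atf3 and Nupr1 lie inside the GENCODE gene, at a start that is not its outermost.
Atf3, chr1:191183284-191183583, minus strand: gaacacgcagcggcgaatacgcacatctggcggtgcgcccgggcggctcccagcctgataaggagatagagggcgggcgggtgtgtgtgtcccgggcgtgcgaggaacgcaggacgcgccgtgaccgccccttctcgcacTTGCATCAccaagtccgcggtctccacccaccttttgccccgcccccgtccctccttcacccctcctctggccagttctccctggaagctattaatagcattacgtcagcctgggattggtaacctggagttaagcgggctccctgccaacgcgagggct
Ddit3, chr10:127290543-127290842, plus strand: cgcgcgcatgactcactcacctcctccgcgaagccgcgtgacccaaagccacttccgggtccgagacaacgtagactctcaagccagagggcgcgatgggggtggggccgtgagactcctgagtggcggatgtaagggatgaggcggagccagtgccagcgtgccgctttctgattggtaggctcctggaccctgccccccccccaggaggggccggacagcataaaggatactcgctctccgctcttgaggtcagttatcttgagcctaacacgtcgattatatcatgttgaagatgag
Cebpg, chr7:35056517-35056816, minus strand: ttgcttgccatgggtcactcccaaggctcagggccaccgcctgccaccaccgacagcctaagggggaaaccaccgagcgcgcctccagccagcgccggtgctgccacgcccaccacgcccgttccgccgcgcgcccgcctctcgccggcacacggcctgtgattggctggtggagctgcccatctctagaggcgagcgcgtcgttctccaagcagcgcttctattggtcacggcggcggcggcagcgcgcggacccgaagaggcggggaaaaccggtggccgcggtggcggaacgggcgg
Trib3, chr2:152344011-152344310, minus strand: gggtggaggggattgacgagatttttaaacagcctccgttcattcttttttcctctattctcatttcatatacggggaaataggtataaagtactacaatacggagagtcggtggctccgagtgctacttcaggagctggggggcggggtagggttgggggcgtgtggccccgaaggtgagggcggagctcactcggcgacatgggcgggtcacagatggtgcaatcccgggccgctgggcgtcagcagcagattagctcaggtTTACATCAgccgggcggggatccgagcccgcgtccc
Chac1, chr2:119350992-119351291, plus strand: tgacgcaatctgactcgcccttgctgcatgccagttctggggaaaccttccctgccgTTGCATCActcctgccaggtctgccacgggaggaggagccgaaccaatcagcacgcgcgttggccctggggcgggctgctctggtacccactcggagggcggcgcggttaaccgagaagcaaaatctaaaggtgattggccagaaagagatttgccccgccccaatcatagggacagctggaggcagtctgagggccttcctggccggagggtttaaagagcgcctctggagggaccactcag
Nupr1, chr7:126625421-126625720, minus strand: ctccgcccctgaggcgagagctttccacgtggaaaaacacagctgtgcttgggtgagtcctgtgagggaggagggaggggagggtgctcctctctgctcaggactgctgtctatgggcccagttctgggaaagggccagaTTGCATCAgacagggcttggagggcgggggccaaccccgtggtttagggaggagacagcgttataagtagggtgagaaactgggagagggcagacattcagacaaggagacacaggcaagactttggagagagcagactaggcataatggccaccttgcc

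A match stood in 4 of the 6 windows, those of Atf3, Trib3, Chac1 and Nupr1, and in none of the windows of Ddit3, Cebpg, Atf4, Atf5 and Cebpb. In Atf3, Chac1 and Nupr1 the letters along the gene's strand were TTGCATCA, beginning at position -110, -193 and -110 with the start base counted as 1, and in Trib3 they were TTACATCA, beginning at position 15. All 4 matches were read on the strand opposite to the gene. Position 15 in Trib3 counts from the RefSeq start. The match there, at 152344039 to 152344046, lies upstream of the GENCODE gene, whose outer end is 152344032. Among all 27025 genes with such a window, 4.51% held a match, against 4 of the 9 genes of the axis. The same search with the cAMP response element as TGACGTCA, the C/EBP palindrome as TTGCGCAA and the endoplasmic reticulum stress element as CCAAT and CCACG with 9 bases of any kind between them, each on both strands, found 0 matches in the windows of the 9 genes, while 2.03%, 0.207% and 0.137% of all genes held one, so no other motif overlapped the 4 matches. A match is a description of the letters and not evidence of binding, and a window without one says only that these letters are not in it.

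Upon lactate supplementation 6 of the 9 genes were called higher, Atf3, Ddit3, Cebpg, Trib3, Chac1 and Nupr1, and 0 were called lower. Of all genes tested, 0.552% were called higher, and the 9 genes were picked with earlier results of these data known, so the contrast of these shares is a description. DESeq2 called the same 6 genes higher, where 1.12% of its genes were. At an unadjusted p under 0.05, 8 of the 9 were higher in edgeR, against 11.7% of all genes, and 0 were lower in edgeR or in DESeq2, where 11.4% of all genes were lower in edgeR. In 8 of the 9, all but Atf5, the lower lactate library exceeded the higher control in CPM, which held for 27.0% of all genes. The median log2 fold change of the 9 genes was 1.33, beside 0.01 over all genes tested. The RSEM expected counts gave calls for 4 of the 9, and leaving out a library gave 4 to 8. Limma-trend on log2(FPKM + 1) or log2(FPKM + 0.1) called none of the 9 and 0 genes in all, with 8 of the 9 at an unadjusted p under 0.05.

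**Figure D1:**
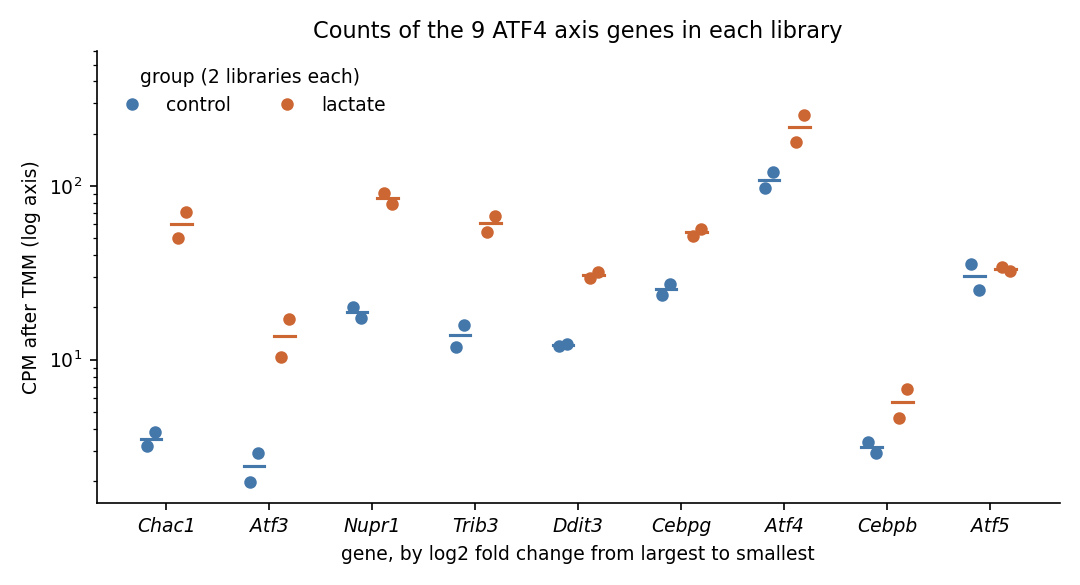
CPM after TMM scaling (log axis) of each of the 9 genes in the 2 control (blue) and 2 lactate (orange) libraries, with a bar at the group mean and genes ordered by log2 fold change. The groups are separate in 8 genes and overlap in Atf5, and the widest gap is that of Chac1, from 3.18 and 3.85 to 50.4 and 70.4 CPM.

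Atf4, which encodes the factor at the head of the axis, stood at 97.0 and 120.6 CPM in control cells, against 180.1 and 255.5 CPM in lactate cells. The groups did not overlap, and lactate 2 was the highest library. The log2 fold change of 1.00 (SE 0.21) did not pass the test, with an adjusted p of 0.0688 in edgeR. In DESeq2 its adjusted p was 0.00168, but its log2 fold change of 0.98 was not over the 2-fold limit. Of all genes tested, 4.30% had a larger log2 fold change than Atf4. Atf4 lies on chromosome 15 (GRCm38, 80255184 to 80257541, plus strand), and no other annotated gene overlaps its exons.

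Atf5, a bZIP factor whose translation is controlled much like that of Atf4, was measured at 35.6 and 25.2 CPM in control cells, against 34.2 and 32.3 CPM in lactate cells. These groups overlapped, with control 1 the highest of the 4 libraries. Its log2 fold change was 0.13 with a standard error of 0.20 (adjusted p = 0.750, edgeR), and without control 2 it became -0.10. The quantification by RSEM, which shares reads out between transcripts, assigned Atf5 fewer reads, with 202 and 284 expected counts in the controls, then 259 and 477 with lactate, where the count table held 615, 479, 635 and 637. In those expected counts the log2 fold change was 0.50 with a standard error of 0.29 (adjusted p = 0.366, edgeR), so Atf5 was not called in either quantification. In FPKM from RSEM its groups did not overlap, at 9.27 and 11.4 in the controls against 13.15 and 19.37 with lactate. The exons of Atf5 on chromosome 7 (44812256 to 44816658, minus strand) are overlapped by Nup62 and Il4i1 of the opposite strand over 82 of 1993 bases, and neither the program that made the count table nor its use of strand is stated, so its reads may be shared with these genes.

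Atf3, a stress-induced bZIP factor that can repress or activate its targets, was the least expressed of the 9 genes in the control. It had 1.97 and 2.90 CPM in control cells, against 10.4 and 17.1 CPM in lactate cells and the groups did not overlap. Within each group the library numbered 2 was the higher. Atf3 rose 5.63-fold, a log2 fold change of 2.49 (SE 0.33, adjusted p = 0.0434, edgeR), with raw counts of 34 and 55 against 193 and 338. This was the largest SE among the 9 genes. Of all genes, 0.209% had a larger log2 fold change. Atf3 lies on chromosome 1 (191170296 to 191218039, minus strand) with no annotated gene over its exons, and its window above holds TTGCATCA. In the RSEM expected counts its adjusted p was 0.0525, which ends the call, at a log2 fold change of 2.48.

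Ddit3 encodes CHOP, a bZIP factor of the C/EBP family that takes part in cell death under lasting stress. Its level was 11.97 and 12.4 CPM in control cells, against 29.4 and 32.1 CPM in lactate cells, so the lactate libraries lay clear of a closely matched pair of controls. Ddit3 rose 2.52-fold, a log2 fold change of 1.33 (SE 0.16, adjusted p = 0.0396, edgeR). A second row with the same symbol is a gene model of 105 bases that lies wholly inside Ddit3, and it went from 2.49 and 2.27 to 8.88 and 6.74 CPM, a log2 fold change of 1.71 (adjusted p = 0.0467, edgeR). All its bases belong to Ddit3 and RSEM gave it 0 expected counts in every library, so its reads cannot be told apart from those of Ddit3. Ddit3 lies on chromosome 10 (127290774 to 127296288, plus strand), where Mars and Gm4189 of the opposite strand and the second model cover 186 of its 1713 exonic bases. Mars, named for that overlap, had a log2 fold change of 0.58 and was not called (adjusted p = 0.212, edgeR). Without control 1 the adjusted p of Ddit3 was 0.0808, which ends the call, at a log2 fold change of 1.29.

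Cebpb and Cebpg encode C/EBPβ and C/EBPγ, bZIP proteins that pair with other members of the family and with ATF4. Cebpb was measured at 3.35 and 2.90 CPM in control cells, against 4.63 and 6.74 CPM in lactate cells, which did not overlap. Its log2 fold change of 0.86 (SE 0.27) did not pass the test (adjusted p = 0.133, edgeR). Tmem189 of the opposite strand covers 312 of the 1504 exonic bases of Cebpb on chromosome 2 (167688915 to 167690418, plus strand).

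Without lactate Cebpg stood at 23.4 and 27.4 CPM, and with it at 51.4 and 56.9 CPM. The lactate libraries lay close together and clear of the control. Cebpg rose 2.13-fold, a log2 fold change of 1.09 (SE 0.15, adjusted p = 0.0467, edgeR). That is close to the 2-fold limit and to the limit on p: the call was lost in the RSEM expected counts (adjusted p = 0.0526) and without control 1 (log2 fold change 0.97, adjusted p = 0.125). Cebpg lies on chromosome 7 (35046422 to 35056573, minus strand), and Gm45095 and Gm44836 cover 77 of its 5621 exonic bases.

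Trib3, a pseudokinase that binds ATF4 and CHOP and restrains them, had 11.8 and 15.9 CPM in the controls and 54.2 and 67.5 CPM after 24 h of lactate. Every lactate library was more than 2-fold above every control library. Trib3 rose 4.38-fold, a log2 fold change of 2.13 (SE 0.21, adjusted p = 0.0320, edgeR), and 0.429% of all genes had a larger one. It lies on chromosome 2 (152337422 to 152344032, minus strand) with no annotated gene over its exons. Its window holds the match nearest to a RefSeq start among the 4, TTACATCA at position 15, which lies outside the GENCODE gene.

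Chac1 encodes a γ-glutamylcyclotransferase that breaks down glutathione. Its 3.18 and 3.85 CPM in the controls became 50.4 and 70.4 CPM with lactate, which in raw counts was 55 and 73 against 936 and 1388. No other gene of the axis separated the groups so far. Chac1 rose 17.1-fold, a log2 fold change of 4.10 (SE 0.24, adjusted p = 0.0165, edgeR), and in the order of p-values it stood at rank 2 of all genes tested. Its position is chromosome 2, 119351229 to 119354381 on the plus strand, and no annotated gene overlaps its exons.

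Nupr1 encodes a small stress-induced chromatin protein. Control libraries held 20.1 and 17.3 CPM of it, and lactate libraries 90.8 and 78.9 CPM. In CPM lactate 1 was the higher of the lactate libraries here, as in Atf5, while lactate 2 was the higher in the other 7 genes. By RSEM, lactate 2 was the higher for Atf5 too, with 477 expected counts against 259 in lactate 1. Nupr1 rose 4.54-fold, a log2 fold change of 2.18 (SE 0.16, adjusted p = 0.0195, edgeR), and stood at rank 6 by p-value. It lies on chromosome 7 (126623249 to 126630861, minus strand), and no annotated gene overlaps its exons.

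**Figure D2:**
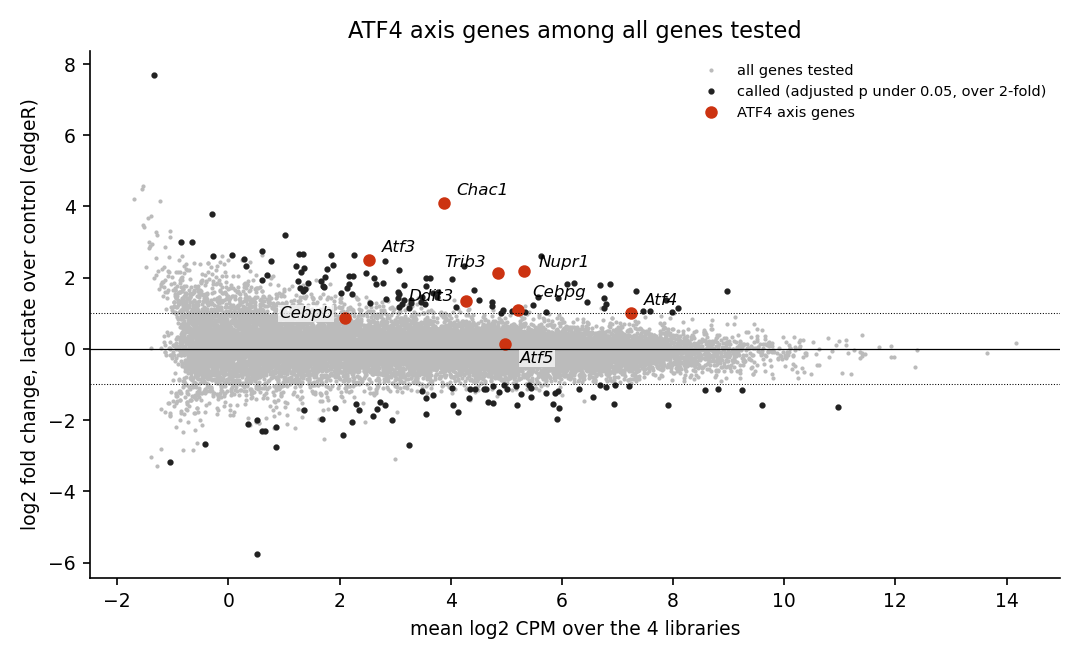
Log2 fold change of lactate over control against the mean log2 CPM of the 4 libraries for all 18661 genes tested (grey), called genes (black) and the 9 genes of the axis (red, named), with dotted lines at a 2-fold change. Chac1 lies highest of the 9 at 4.10, Atf5 lies within the cloud at 0.13, and Atf4 lies on the upper dotted line at 1.00.

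The size of the change was spread widely within the axis. The effectors Trib3, Chac1 and Nupr1 and the factor Atf3 had log2 fold changes of 2.13, 4.10, 2.18 and 2.49, while the 5 other factors lay between 0.13 and 1.33. The 4 genes with the larger changes are the 4 whose windows hold TGATGNAA, a description of 9 genes, split after their values were seen, that was not tested. In the lists below, TGATGNAA stood in 5 of the 9 genes with a window among those that charge or export transfer RNA. The median log2 fold change over all 13 genes of that list was 0.49. It stood in 4 of the 17 genes of amino acid supply with a window, and the median over all 21 was 0.86. The log2 fold changes of DESeq2 lay within 1 standard error of those of edgeR for each of the 9 genes, and in the RSEM expected counts they differed most for Atf5 and Ddit3.

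**Figure D3:**
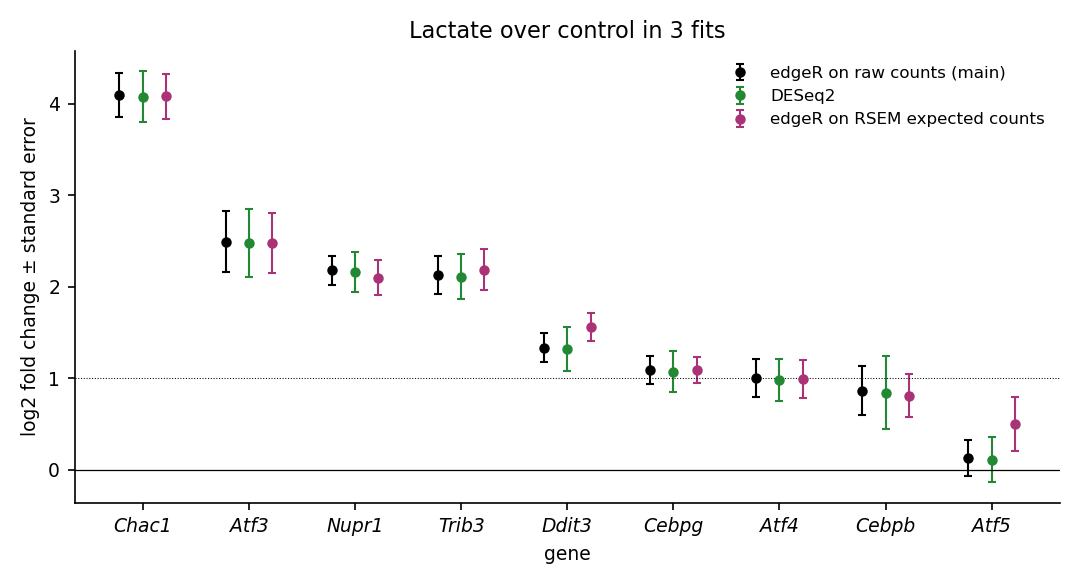
Log2 fold change of lactate over control for each gene, with bars of 1 standard error, from edgeR on raw counts (black), DESeq2 (green) and edgeR on the RSEM expected counts (purple), with a dotted line at a 2-fold change. Chac1 and Atf3 have the largest values in each of the 3 fits, Nupr1 and Trib3 lie side by side with overlapping bars, and Atf5 moves most, from 0.13 to 0.50.

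Levels can be compared between genes as FPKM, which scales reads by gene length and library depth. In the control Atf4 had the highest level at 78.8 ± 13.1 FPKM (SD, n = 2), followed by Nupr1 at 35.3 ± 4.22 and Ddit3 at 21.4 ± 0.658 FPKM. Atf5 (10.3 FPKM), Trib3 (7.41), Cebpg (7.01), Cebpb (3.80), Chac1 (2.80) and Atf3 (1.46) followed, and of the neighbours in this order the libraries of Trib3 and Cebpg overlapped. After lactate Atf4 was at 168.9 ± 43.8 and Nupr1 at 164.0 ± 19.2 FPKM, with overlapping libraries, so the messenger RNA of Nupr1 had reached a level not separable from that of Atf4.

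Ddit3 followed in the lactate libraries at 64.0 ± 2.19, Chac1 at 50.5 ± 13.7 and Trib3 at 37.0 ± 6.48 FPKM, of which Chac1 and Trib3 overlapped. Chac1 went from rank 8 to rank 4 among the 9 genes, the longest move in the order. Atf5 and Cebpg at 16.3 and 14.9 FPKM overlapped, as did Atf3 and Cebpb at 8.66 and 7.09 FPKM, which took the lowest ranks. The order was the same in TPM at 18 of 18 ranks over both groups, and at 14 of 18 when the counts were divided by RSEM's effective length.

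**Figure D4:**
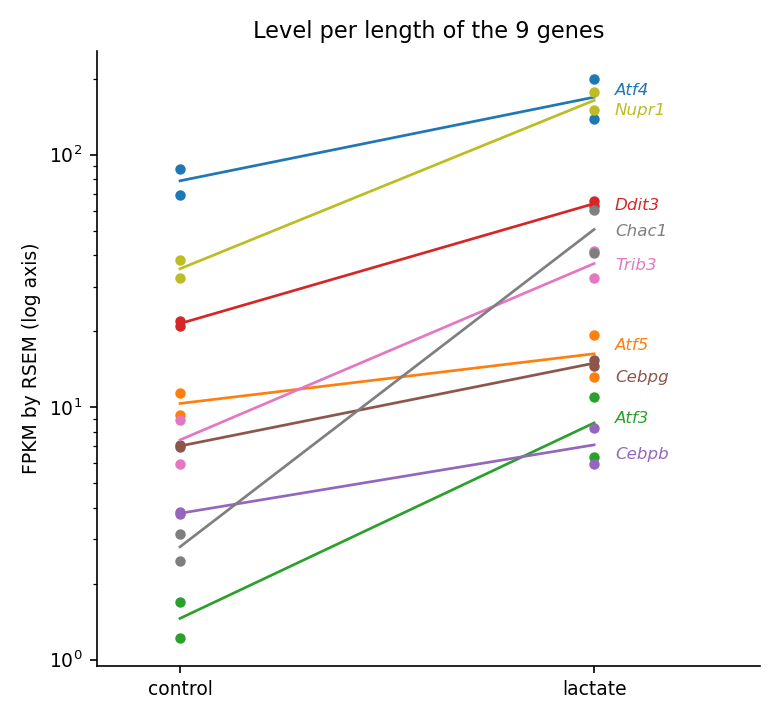
FPKM from RSEM (log axis) of the 9 genes in the 2 control and 2 lactate libraries (points), with lines joining the group means. The line of Chac1 is the steepest, from 2.80 to 50.5 FPKM, and Nupr1 meets Atf4 in the lactate libraries at 164.0 and 168.9 FPKM.

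Paralogs and genes listed as relatives of the 9 genes gave values on both sides of 0. Of 10 listed relatives 9 were tested, 5 with a log2 fold change above 0 and 4 below, with a median of 0.02. Of these 0 were called by edgeR or DESeq2, and 1, Jdp2, was higher at an unadjusted p under 0.05 in edgeR, where 11.7% of all genes were. The 9 include Cebpz (log2 fold change -0.28), which carries the C/EBP name but is not a bZIP factor. The 4 below 0 and the median count it. Trib1 and Trib2, pseudokinases related to Trib3, had log2 fold changes of -0.16 and -0.74. Cebpa and Cebpd had 0.02 and -0.38, and Chac2, the paralog of Chac1, had 0.51. Nupr1l, the paralog of Nupr1, had 0.72, on raw counts of 6 and 10 against 11 and 17. Creb3l3 had 0.75, and neither was called. Jdp2, a bZIP repressor related to Atf3, went from 13.5 and 9.01 to 21.9 and 21.5 CPM, a log2 fold change of 0.95 that did not pass the test (adjusted p = 0.0829, edgeR). The differences between the 9 genes and these relatives were not tested.

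Of 41 further bZIP factors 36 were tested, 18 above 0 and 18 below, with a median log2 fold change of 0.01. EdgeR called 1 of these, Fosb, which was lower, and DESeq2 called 2, Fosb and Fos, both lower. Over all genes, 65 were called lower by edgeR and 168 by DESeq2. At an unadjusted p under 0.05 in edgeR, 2 of the 36 were higher and 4 lower, where 11.7% and 11.4% of all genes were. The 2 higher were Creb5 (log2 fold change 1.09) and Bach2 (0.59), neither called. Fosb had 4.51 and 13.1 CPM in control cells, against 0.161 and 0.152 CPM in lactate cells. Fos, its AP-1 relative, had 12.95 and 35.3 against 2.58 and 3.09 CPM and did not pass edgeR's test (adjusted p = 0.0520), and the control libraries of both genes differed between themselves by more than 2-fold. Jun, which can pair with ATF3, had a log2 fold change of 0.38. Atf6 and Xbp1, the bZIP factors of the other branches of the unfolded protein response, had log2 fold changes of 0.37 and -0.20, neither called.

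Of 12 genes upstream of ATF4, which are the kinases, the eIF2 subunits, the genes that bring the phosphatase to eIF2 and the kinase regulators Dnajc3 and Impact, 6 lay above 0 and 6 below, and the median log2 fold change was -0.01. By edgeR and by DESeq2 0 were called, and at an unadjusted p under 0.05 edgeR had 2 higher and 1 lower, where 11.7% and 11.4% of all genes were. Eif2ak3 (PERK, the kinase of the endoplasmic reticulum) had 0.06 and Eif2ak4 (GCN2, the sensor of amino acid shortage) had -0.17, while Eif2ak2 (PKR, the sensor of double-stranded RNA) had -0.53 (adjusted p = 0.170, edgeR). Of the phosphatase genes, Ppp1r15a and Ppp1r15b had 0.45 and 0.80, the latter with 112.4 and 130.0 against 199.0 and 222.1 CPM and an adjusted p of 0.0578 in edgeR. These messenger RNA levels say nothing of the kinases' activity.

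Genes of amino acid supply known as ATF4 targets had 10 of 21 called higher (9 by DESeq2) and 0 called lower. Of all genes tested, 0.552% were called higher by edgeR and 1.12% by DESeq2. In this list 19 lay above 0, with a median log2 fold change of 0.86, beside 0.01 over all genes. The transporters Slc1a4 (2.60), Slc6a9 (2.21), Slc7a11 (3.20), Slc7a1 (1.37), Slc7a5 (1.16) and Slc38a2 (1.07) rose on the log2 scale, and among enzymes so did Mthfd2 (1.83), Aldh18a1 (1.78), Gpt2 (1.33) and Pycr1 (1.01). Slc7a11 encodes the cystine carrier that feeds glutathione synthesis, and it went from 0.636 and 0.580 to 5.11 and 6.13 CPM. Asns, asparagine synthetase, went from 647.7 and 566.5 to 906.1 and 865.3 CPM without passing the test (log2 fold change 0.54, adjusted p = 0.110, edgeR).

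Of 13 genes that charge or export transfer RNA, 12 synthetases and Xpot, all 13 had a log2 fold change above 0. The median was 0.49, beside 0.01 over all genes. By edgeR and DESeq2 0 were called. At an unadjusted p under 0.05 in edgeR 10 were higher, where 11.7% of all genes were. Nars and Yars led these with 0.82 and 0.74. Their promoter windows held TGATGNAA in 5 of the 9 genes that had a window, against 4 of 17 for amino acid supply and 1 of 20 for the targets of ATF6 and XBP1.

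Targets of ATF4 and CHOP in stress and cell death had 4 of 21 called higher (5 by DESeq2) and 1 called lower, with a median log2 fold change of 0.56. Over all 18661 genes tested edgeR called 0.552% higher and 65 genes lower, and DESeq2 called 1.12% of its genes higher. In this list 15 lay above 0 and 6 below. At an unadjusted p under 0.05 in edgeR 12 were higher and 2 lower, where 11.7% and 11.4% of all genes were. The cell death genes Bbc3 and Pmaip1 had log2 fold changes of -0.60 and 0.58, neither called. Vldlr, a lipoprotein receptor, and Stc2, a secreted glycoprotein, rose by 1.77 and 1.60, and Txnip, a thioredoxin-binding arrestin best known as a target of MondoA, by 1.63. Inhbe, a secreted inhibin subunit, rose from 0.173 and 0.158 to 2.58 and 2.13 CPM, with 3 reads in each control. Ndrg1, a hypoxia-responsive gene, fell by 1.78 on the log2 scale. Sesn2 and Ddit4, brakes on the growth kinase mTORC1, had 0.74 and 0.49 and did not pass the test, and the lactate libraries of Ddit4 differed, at 65.1 and 125.8 CPM.

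The targets of ATF6 and XBP1, chaperones and degradation factors of the endoplasmic reticulum, gave a median log2 fold change of -0.17 over 23 genes, with 7 above 0 and 16 below and 9 of those below at an unadjusted p under 0.05, where 11.4% of all genes were lower. Hspa5, the chaperone BiP, fell by 1.16 on the log2 scale, from 528.7 and 617.5 to 231.8 and 281.4 CPM (adjusted p = 0.0467, edgeR). Herpud1, a degradation factor that ATF4 also controls, rose by 2.33, from 8.56 and 8.12 to 44.7 and 39.1 CPM (adjusted p = 0.0195, edgeR). Dnajb9 and Sdf2l1 had 0.10 and -0.47. The endoplasmic reticulum stress element stood in 8 of the 20 of these genes that had a window, and in 0 of 9 of the ATF4 axis.

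**Figure D5:**
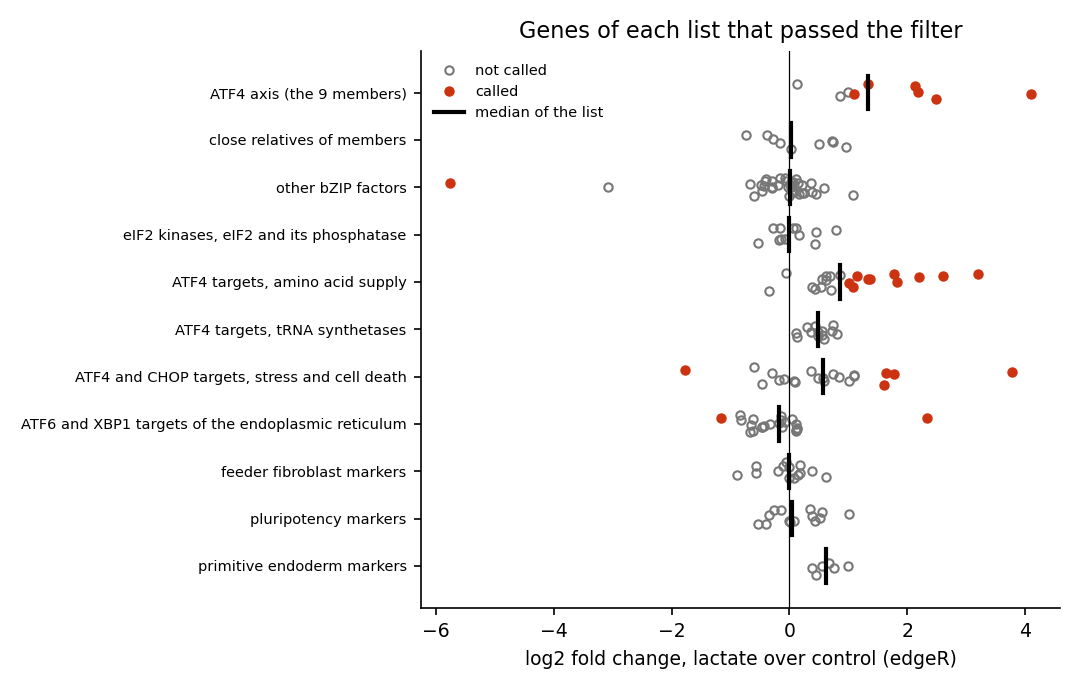
Log2 fold change of lactate over control (horizontal axis) of each gene that passed the filter, by list, with called genes filled in red and a black bar at each list's median. The ATF4 axis has the largest median at 1.33, amino acid supply follows among the ATF4 targets at 0.86, and the targets of ATF6 and XBP1 lie to the left of 0 at -0.17.

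Genes with the most similar pattern were found by the Euclidean distance between mean-centred log2 CPM over the 4 libraries, which covers the 2 conditions only. The distance was not scaled by the size of a gene's change. Chac1 had 0 genes within a distance of 0.5, and its nearest was Gm7903 at 0.792, followed by Inhbe and Slc7a11 at 1.06 and 1.10. Gm7903 had a log2 fold change of 7.70 (adjusted p = 0.0467, edgeR), beside 4.10 for Chac1. Atf3 had 10 such genes with Cyb5r2 the nearest at 0.343, Trib3 had 38 with Tsc22d3 at 0.125, and Nupr1 had 57 with Gm7804 at 0.126, Otog at 0.157 and Herpud1 at 0.169. Ddit3 had 426, the nearest being Enthd1 at 0.0495 and Gpt2 at 0.0524. Cebpg had 811, with Bhmt, Dusp6 and Rnf157 the nearest, and Atf4 had 655, with Gm14260 at 0.0346. Cebpb had 829, nearest Grin2b, and Atf5 had 6687, nearest Pcgf5. The number within a fixed distance depends on the size of a gene's change, so it does not count the genes that share a pattern. No gene of the axis was among the 3 nearest of another.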

How the data were processed

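Total RNA of the AB2.2 cultures was sequenced with the TruSeq RNA kit in 2 control and 2 lactate libraries. Per the labels and the study's methods, the authors trimmed reads with cutadapt 1.16, mapped them with STAR to mm10 and counted reads in exons with STAR's GeneCounts setting. The authors deposited a table of raw counts, unnormalized, that also holds families of transposable elements. Whether the GeneCounts setting or another program made that table is not given in the sources used here. For each library the authors also deposited RSEM's expected counts, TPM, FPKM and effective length per gene. Whether counting used strand is not stated either.

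Tests on counts used edgeR 4.0.16 under R 4.3.3 (filterByExpr by group, TMM factors, legacy quasi-likelihood fit without covariates, Benjamini-Hochberg adjustment over all genes tested). CPM values are after TMM. Alternatives used DESeq2 1.42.0, limma 3.58.1 on log2(FPKM + 1) or log2(FPKM + 0.1) where the mean FPKM exceeded 0.1, RSEM expected counts rounded to whole numbers, other factors and filters, a replicate block, and each library left out in turn. The fits were tested on simulated data. Patterns used log2 CPM with a prior count of 2. Positions and overlaps are from GENCODE on GRCm38, promoters from RefSeq, with windows matched for all 9 genes. The 9 genes and all lists were chosen with earlier results of these data known. Genes named from the lists are the called ones, those with the largest changes at an unadjusted p under 0.05 (at most 2 for each list) and fixed comparators. Fn1, Cebpz, Nupr1l, Creb3l3, Creb5, Bach2, Bbc3 and Pmaip1 were named outside this rule, after their values were seen. Planned protein comparisons were not analysed here.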

Additional observations from a re-analysis of the deposited data

How the results depend on the processing

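The direction of all 9 genes was kept under every alternative run, apart from Atf5, whose log2 fold change ran from -0.10 (without control 2) to 0.38 with a library left out. The same 6 genes were called higher with DESeq2, RLE, upper-quartile or total scaling, no filter or at least 10 counts in every library, a fit without the legacy form, mitochondrial genes left out, and the replicate block. RSEM expected counts called 4 (Ddit3, Trib3, Chac1 and Nupr1), and leaving out each library called 4 to 8, with the remaining library of that group assumed to vary like the other group: without control 1 Ddit3 and Cebpg were lost, without control 2 Atf4 was added, and without lactate 1 Atf4 and Cebpb were added. Limma-trend on log2(FPKM + 1) or log2(FPKM + 0.1) called 0 of the 9 and 0 genes higher or lower, with 8 of the 9 and 1791 or 1819 genes higher and 1123 or 1135 lower at an unadjusted p under 0.05, and smallest adjusted p-values of 0.146 and 0.0551. The members' median log2 fold change was 1.56 with RSEM and 1.57 with log2(FPKM + 0.1). Genes called higher and lower were 190 and 168 with DESeq2, 482 and 325 without a filter, 27 and 17 with RSEM, and 45 to 502 and 39 to 367 with a library left out, and total scaling called 40 lower. The cause of these shifts was not tested. With the replicate number as a block 761 and 395 genes were called. The labels do not say what the number marks, control 1 and lactate 1 deviated together (r = 0.56 across genes, which are not independent), and with 2 pairs this is no more than a hint from the data. With 2 libraries a group, the changes of Atf4 and Cebpg, near 2-fold, lay at the limits for a call in edgeR without covariates. Their adjusted p-values depended on the fit. With the block they were 5.4e-10 and 1.4e-09 in edgeR, and in limma-trend on log2(FPKM + 1) they were 0.256 and 0.239. The log2 fold changes with the block were 0.99 and 1.09, so Atf4 failed only the 2-fold limit there, as in DESeq2.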
